A study of Rattus norvegicus with 14 samples.

Results

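Collagen genes were followed in RNA from the caudal perirhinal cortex, a cortical area needed for recognition memory, of 14 male Lister Hooded rats. Members were all genes whose symbol in the deposited comparison tables starts with Col, a number, the letter a and a number, which 46 of 17905 identifiers did. One of them, Col4a3bp, is the ceramide transfer protein and not a collagen, and it was set apart. The other 45 identifiers carry 44 symbols, because Col23a1 is listed under 2 identifiers. They were divided by structure into 11 fibrillar chains, 6 basement membrane chains of type IV, 2 multiplexins of the basement membrane zone, 1 anchoring fibril chain of type VII, 6 microfibrillar chains of type VI, 5 identifiers of transmembrane collagens, 3 short-chain network chains of types VIII and X, 9 FACIT chains and 2 others.

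Group Familiar (n = 5) had been trained in the bow-tie maze, a maze with an object area at either end, and was tested with highly familiar objects. A second trained group (n = 5), called the new-object group here, met completely new objects in the test. Group Control (n = 4) was made up of rats with no behavioural training or test. All animals were food restricted and weighed 350 to 450 g per the labels, which give no age, genotype or transgene, and brains of trained rats were taken 1 h after the test. Libraries of the trained groups had been chosen by RNA quality and partly by how the rats behaved in the test, so neither group is a random sample of trained rats. Cages held a rat of either trained group together, but the labels do not tell which rats were cage mates. Libraries of ribosome-depleted total RNA were read with an Ion Proton machine. The Familiar vs Control comparison held 45 of the collagen identifiers, new-object vs Control 44 and Familiar vs new-object 42. The paper states that genes with a mean count under 1 in any group were left out. Col6a4 was listed for Familiar vs Control alone, Col6a5 and Col22a1 lacked a row for Familiar vs new-object, and Col21a1 was not analysed here. Under that rule a gene listed in both comparisons with Control would also be listed between the trained groups. The filter behind the listed genes is therefore unknown, and members with low counts in a group may be among them.

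Collagens are proteins of the extracellular matrix in which chains wind around each other into a triple helix. Fibrillar types build the cables of connective tissue, type IV builds the sheet-like network of basement membranes around vessels and under the pia mater, type VI forms beaded filaments next to cells, and transmembrane types sit in the plasma membrane. Healthy cortical tissue holds little fibrillar collagen, most of which lies in the meninges and in the walls of larger vessels.

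The tables hold 0 columns of values per rat. The level of a collagen in each animal, the spread between animals and the overlap of groups therefore cannot be given. The paper gives average reads per library but not the depth of each library. Unless another setting is named, each value below is a log2 fold change between group means from the authors' edgeR tests after removal of 4 sources of variation (k = 4) with RUVSeq. The error printed after a fold change is the standard error that the fold change and its p together imply, an approximation that is least reliable where p is near 1. It leaves out spread between rats that RUVSeq removed before the test. A DEG had an unadjusted p under 0.01 and a rise of at least 25% or a fall to a fold change of at most 0.8. Adjusted p values are these edgeR p values after Benjamini-Hochberg adjustment across the whole table. In bulk tissue, fewer cells of a type and less RNA per cell cannot be told apart. Both comparisons with Control use the same 4 Control libraries.

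The collagens that differed from Control in group Familiar were mostly fibrillar chains, and mostly higher. In Familiar vs Control, 9 of 45 collagens (20.0%) were DEGs, where 3.72% of all 17521 genes were. Of these, 8 were higher in Familiar (1.83% of all genes): Col1a1, Col1a2, Col3a1, Col5a1, Col24a1, Col4a6, Col6a3 and Col8a2. The ninth, Col23a1, was lower (1.89% of all genes). An adjusted p under 0.05 was reached by 3 collagens, Col3a1, Col6a3 and Col1a1 (1.97% of all genes). The median log2 fold change of the 45 was 0.26, beside 0.00 over all genes, and 33 (73.3%) lay above 0, beside 50.1% of all genes. These calls are at k = 4. Without RUVSeq 1 of 45 (2.22%), the lower Col23a1, was a DEG, beside 0.993% of all genes, and none of the 8 higher calls remained.

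In new-object vs Control, 3 of 44 collagens (6.82%) were DEGs, beside 2.66% of all 17257 genes. Col11a1 was higher (1.09% of all genes), and Col20a1 and Col6a5 were lower (1.57% of all genes). Col6a5 was listed only in the comparisons with Control, a limit taken up below. No member reached an adjusted p under 0.05 (0.869% of all genes did), while 9 of 44 had an unadjusted edgeR p under 0.05, beside 1750 of all 17257 genes. The median of the 44 was -0.04, beside -0.01 over all genes, and 19 (43.2%) lay above 0.

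In the direct comparison of Familiar vs new-object, 2 of 42 collagens (4.76%) were DEGs, Col5a2 and Col6a3, both higher in Familiar, beside 2.5% of all 17461 genes in either direction and 1.36% higher. No collagen was a lower DEG there, where 1.14% of all genes were, and 0 of 42 reached an adjusted p under 0.05 (0.407% of all genes), while 9 of 42 had an unadjusted edgeR p under 0.05, beside 1675 of all 17461 genes. The median of the 42 was 0.21, beside 0.01 over all genes, and 32 (76.2%) lay above 0, beside 52.3% of all genes. Chains of one molecule are often made by the same cells, so counts over members are not counts of independent genes.

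**Figure D1:**
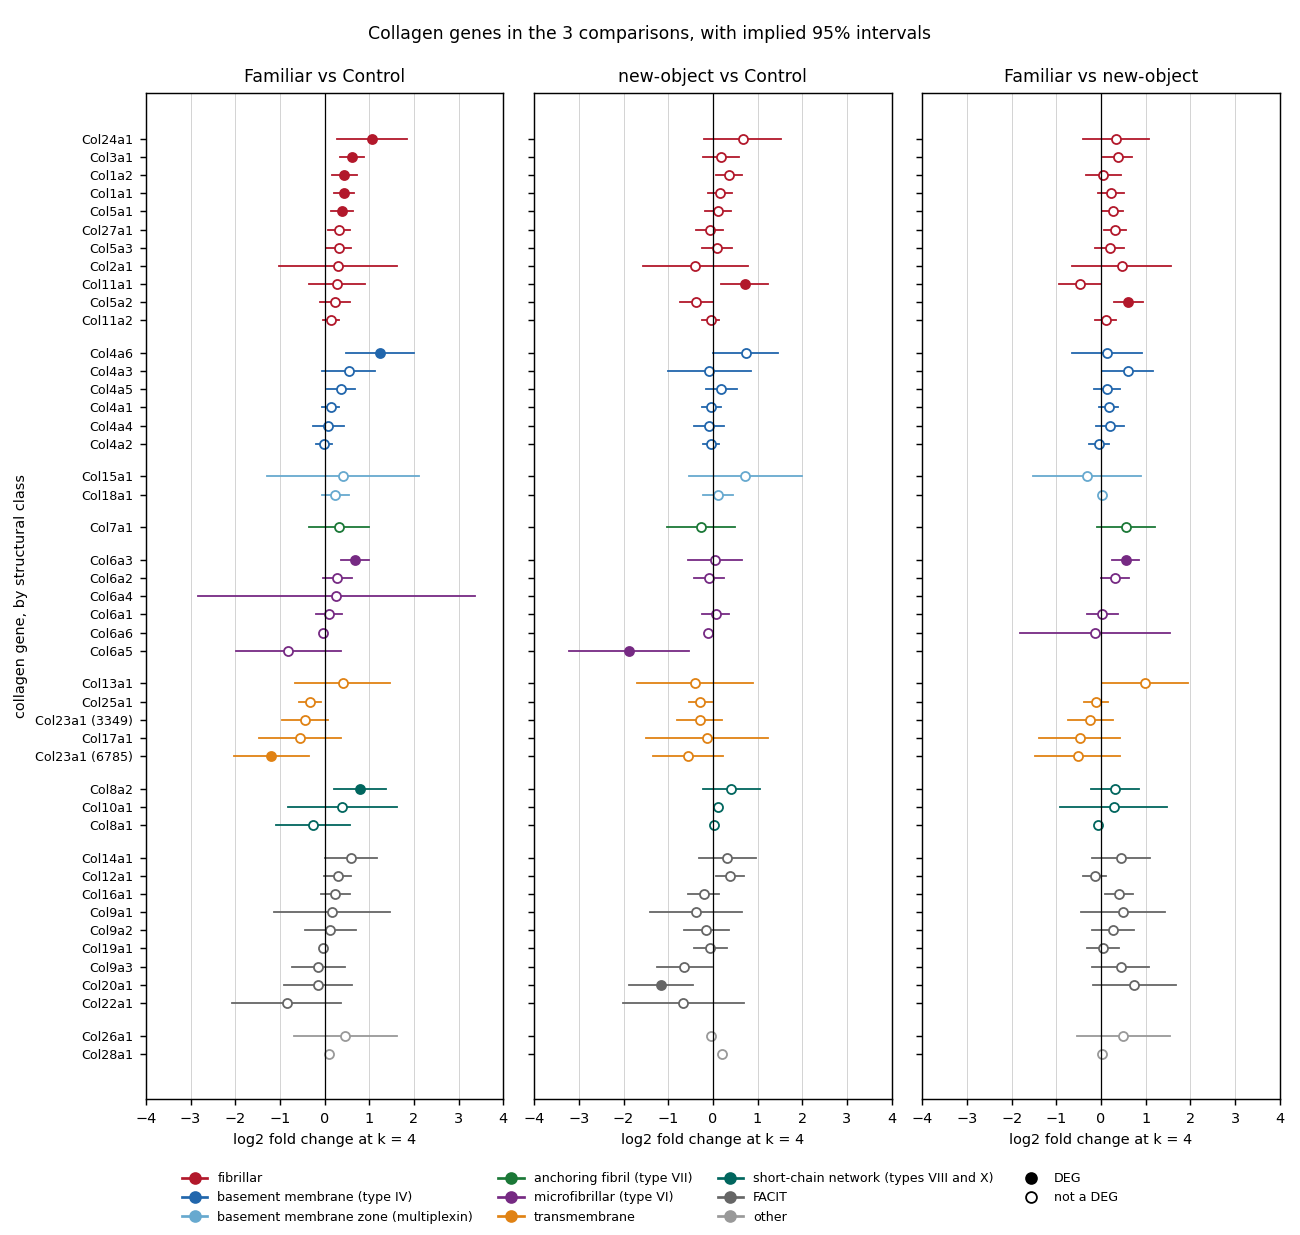
Log2 fold change at k = 4 (horizontal axis) of each of the 45 collagen identifiers (vertical axis, by structural class) in the 3 comparisons; lines are implied 95% intervals, left out for 11 values with a p above 0.9, filled circles are DEGs, and the 2 identifiers of Col23a1 carry their last digits. All 11 fibrillar circles lie right of 0 in Familiar vs Control, against 7 in new-object vs Control.

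Fibrillar collagens gave 5 of the 8 increases. Col3a1 (ENSRNOG00000003357), the type III chain of vessel walls and soft connective tissue and a ligand of the receptor Adgrg1 at the pial surface, had a log2 fold change of 0.61 ± 0.13 in Familiar vs Control (fold change 1.52, adjusted p = 0.00118). In new-object vs Control its value was 0.18 ± 0.21 (adjusted p = 0.901), and in Familiar vs new-object 0.37 ± 0.17 (adjusted p = 0.449). At k = 4 the increase over Control thus passed the test in Familiar, while the difference between the trained groups did not. With 5 sources removed the latter was 0.37 ± 0.08 (adjusted p = 0.00359) and Col3a1 was a DEG of Familiar vs new-object. Without RUVSeq that difference was 0.24 ± 0.28, and Col3a1 was no DEG of that comparison at any setting other than k = 5.

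The chains of type I, the main collagen of fibrils in most tissues, had nearly the same value in Familiar. Col1a1 (ENSRNOG00000003897) was at 0.43 ± 0.11 (fold change 1.35, adjusted p = 0.0146) and Col1a2 (ENSRNOG00000011292) at 0.44 ± 0.14 (fold change 1.35, adjusted p = 0.0868). In the new-object group Col1a1 was at 0.15 ± 0.14 and Col1a2 at 0.36 ± 0.15 (adjusted p = 0.315), neither a DEG. Between the trained groups the values were 0.23 ± 0.15 for Col1a1 and 0.05 ± 0.20 for Col1a2, with 95% intervals from -0.06 to 0.52 and from -0.34 to 0.44.

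Type V chains join type I fibrils and set their number and width. Col5a1 (ENSRNOG00000008749) was higher in Familiar than in Control by 0.38 ± 0.12 (fold change 1.30, adjusted p = 0.0801), and its value was 0.11 ± 0.15 in the new-object group and 0.26 ± 0.12 between the trained groups. Col5a2 (ENSRNOG00000003736) differed between the trained groups instead, with a log2 fold change of 0.61 ± 0.17 in Familiar vs new-object (fold change 1.53, adjusted p = 0.0628). Its values against Control lay on either side of 0, at 0.23 ± 0.17 in Familiar and -0.37 ± 0.19 in the new-object group, and neither was a DEG. Col5a3 was at 0.31 ± 0.14 in Familiar vs Control and was no DEG in any comparison.

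Col24a1 (ENSRNOG00000014143), a minor fibrillar chain, had the largest fibrillar fold change and a wide error, 1.06 ± 0.40 in Familiar vs Control (fold change 2.08, adjusted p = 0.182). It was at 0.67 ± 0.44 in the new-object group and 0.34 ± 0.38 between the trained groups. Col11a1 (ENSRNOG00000023148), a chain of cartilage fibrils, was the 1 higher DEG of new-object vs Control, at 0.71 ± 0.27 (fold change 1.64, adjusted p = 0.25), and its values were 0.29 ± 0.32 in Familiar vs Control and -0.47 ± 0.24 in Familiar vs new-object. The 3 remaining fibrillar chains were no DEGs in any comparison. Col27a1 was at 0.31 ± 0.13 in Familiar vs Control, the cartilage chain Col2a1 at 0.30 ± 0.67 and Col11a2 at 0.13 ± 0.09, the lowest of the class.

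Over the class, the median log2 fold change was 0.31 in Familiar vs Control, 0.11 in new-object vs Control and 0.26 in Familiar vs new-object, and without RUVSeq 0.42, 0.27 and 0.20. All 11 were above 0 in Familiar vs Control at each of the 5 settings from upper quartile normalization alone to k = 4, where 50.0% to 51.1% of all genes were. In Familiar vs new-object 10 of 11 were above 0 at each of 6 settings, and in new-object vs Control 7 or 8 of 11.

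Promoters of 4 of the 6 fibrillar chains that were DEGs in a comparison of group Familiar, Col1a2, Col5a1, Col24a1 and Col5a2, are shown to let their upstream letters be compared, and none is shown for Col1a1 and Col3a1. Of the 44 symbols, 35 had a promoter in the RefSeq table of the GRCr8 assembly, a later build than the Rnor_6.0 genome to which the authors mapped. Each stretch holds the 250 bases before the annotated start, 5′ to 3′ on the gene's strand, with capitals for the TATA box letters TATAAA, for the CCAAT box and for the GC box letters GGGCGG, each on either strand. Over 33469 promoters cut to the same length, 12.9% held TATAAA, 34.0% CCAAT and 30.5% GGGCGG on either strand, and over the 35 collagen promoters 11.4%, 31.4% and 54.3% (19) did. The Col1a2 stretch lies at chr4:33518307-33518556 on the plus strand, Col5a1 at chr3:31606630-31606879 plus, Col24a1 at chr2:236872384-236872633 plus and Col5a2 at chr9:55090152-55090401 minus.
Col1a2: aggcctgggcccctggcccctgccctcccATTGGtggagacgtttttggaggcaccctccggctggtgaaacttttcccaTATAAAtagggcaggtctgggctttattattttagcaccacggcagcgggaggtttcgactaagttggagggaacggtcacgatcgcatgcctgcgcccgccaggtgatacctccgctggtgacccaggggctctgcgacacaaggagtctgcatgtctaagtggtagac
Col5a1: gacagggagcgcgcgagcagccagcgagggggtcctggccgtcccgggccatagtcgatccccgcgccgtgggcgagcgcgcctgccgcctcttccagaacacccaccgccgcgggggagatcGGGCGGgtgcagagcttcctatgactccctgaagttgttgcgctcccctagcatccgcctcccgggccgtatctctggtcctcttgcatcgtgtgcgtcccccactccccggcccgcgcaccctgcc
Col24a1: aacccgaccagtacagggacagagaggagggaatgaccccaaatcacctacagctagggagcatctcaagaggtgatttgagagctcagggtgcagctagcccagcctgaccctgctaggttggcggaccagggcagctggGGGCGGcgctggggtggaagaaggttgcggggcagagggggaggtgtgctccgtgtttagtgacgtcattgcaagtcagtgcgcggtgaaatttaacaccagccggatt
Col5a2: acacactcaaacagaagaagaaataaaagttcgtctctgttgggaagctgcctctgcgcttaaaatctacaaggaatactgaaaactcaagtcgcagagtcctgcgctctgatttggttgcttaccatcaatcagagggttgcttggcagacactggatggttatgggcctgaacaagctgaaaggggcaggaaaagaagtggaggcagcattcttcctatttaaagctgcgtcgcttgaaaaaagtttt
Col1a2 held TATAAA starting 170 bases before the annotated start and CCAAT on the opposite strand at 221 bases. Col5a1 and Col24a1 held 1 GGGCGG each, at 127 and 109 bases, and Col5a2 held none of these letters in this window.

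Type VI filaments are built from Col6a1, Col6a2 and 1 of several longer chains, of which Col6a3 is the common one. Col6a3 (ENSRNOG00000019648) was the collagen that differed from both other groups. It was higher in Familiar than in Control by 0.68 ± 0.16 (fold change 1.60, adjusted p = 0.00437) and higher than in the new-object group by 0.55 ± 0.15 (fold change 1.46, adjusted p = 0.0628). In new-object vs Control it was at 0.05 ± 0.30, with a 95% interval from -0.55 to 0.64.

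The partner chains were no DEGs. Col6a2 was at 0.29 ± 0.16 in Familiar vs Control and 0.31 ± 0.16 in Familiar vs new-object, and Col6a1 at 0.10 ± 0.15 and 0.03 ± 0.18. Whether Col6a3 differed from its partners was not tested, and the intervals of the 3 chains overlapped in Familiar vs Control. Among the alternative long chains, Col6a5 (ENSRNOG00000010663) was below Control in the new-object group by the largest amount of any collagen, with a log2 fold change of -1.87 ± 0.69 (fold change 0.274, adjusted p = 0.218). Without RUVSeq it was at -3.25 and a DEG, with an implied error of 1.10, larger than that of 86.2% of the genes of the table. At k = 1 it was at -1.54 and no DEG. It was listed only in the comparisons that include Control, the group where it was higher. Whether a count filter kept it through Control, which would favour a lower value, was not tested. Col6a5 was at -0.81 ± 0.60 in Familiar vs Control, and Col6a4 and Col6a6 had log2 fold changes of 0.26 and -0.03 there. The Col6a3 promoter is shown as that of the chain higher in Familiar than in both other groups, at chr9:98886959-98887208 on the minus strand, and holds none of the motifs named above.
Col6a3: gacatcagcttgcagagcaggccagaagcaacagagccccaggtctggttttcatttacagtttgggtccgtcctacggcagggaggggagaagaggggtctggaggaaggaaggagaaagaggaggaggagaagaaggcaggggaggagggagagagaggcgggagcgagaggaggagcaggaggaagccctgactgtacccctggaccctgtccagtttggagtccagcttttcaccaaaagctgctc

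**Figure D2:**
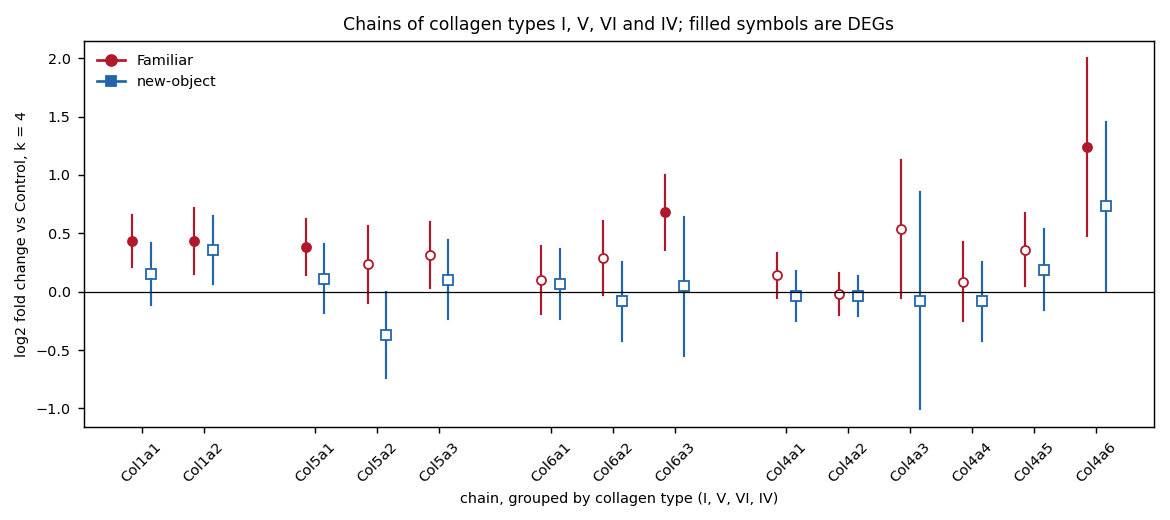
Log2 fold change against Control at k = 4 (vertical axis) for the chains of types I, V, VI and IV (horizontal axis) in Familiar (circles) and in the new-object group (squares), with implied 95% intervals and filled symbols for DEGs. Col6a3 and Col4a6 stand highest among the chains of their types in Familiar, at 0.68 and 1.24.

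Of the 6 basement membrane chains of type IV, 1 was a DEG. Col4a1 and Col4a2, which together form the network found in nearly every basement membrane, including that of brain vessels, were at 0.14 ± 0.10 and -0.02 ± 0.09 in Familiar vs Control. In the new-object group both were at -0.04, with errors of 0.11 and 0.09, and over both comparisons with Control the implied 95% intervals of these chains ran no lower than -0.25 and no higher than 0.33. Col4a3, Col4a4 and Col4a5, which assemble with each other in a more restricted set of membranes, were at 0.54 ± 0.30, 0.09 ± 0.17 and 0.36 ± 0.16 in Familiar, and none was a DEG.

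Col4a6 (ENSRNOG00000056772), which joins Col4a5, was the DEG and had the largest increase of all collagens in Familiar vs Control, 1.24 ± 0.39 (fold change 2.36, adjusted p = 0.0639). In new-object vs Control it was at 0.73 ± 0.37 (adjusted p = 0.480) and in Familiar vs new-object at 0.13 ± 0.40. For this gene the tables fit each other least: the value of Familiar vs Control less that of new-object vs Control differed from the direct comparison by 0.371 on the log2 scale, beside a median of 0.0548 over the 42 collagens in all 3 tables. Col4a5 and Col4a6 lie head to head on chromosome X, with 1414 bases between the starts used here. Their promoters, chrX:109907109-109907358 on the plus strand and chrX:109905945-109906194 on the minus strand, are shown because 1 chain of the pair was a DEG and the other was not.
Col4a5: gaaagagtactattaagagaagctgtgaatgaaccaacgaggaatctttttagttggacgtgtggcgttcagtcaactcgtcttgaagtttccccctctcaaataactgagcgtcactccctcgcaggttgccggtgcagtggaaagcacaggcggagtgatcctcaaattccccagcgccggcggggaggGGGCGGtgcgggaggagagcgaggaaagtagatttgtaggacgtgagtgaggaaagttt
Col4a6: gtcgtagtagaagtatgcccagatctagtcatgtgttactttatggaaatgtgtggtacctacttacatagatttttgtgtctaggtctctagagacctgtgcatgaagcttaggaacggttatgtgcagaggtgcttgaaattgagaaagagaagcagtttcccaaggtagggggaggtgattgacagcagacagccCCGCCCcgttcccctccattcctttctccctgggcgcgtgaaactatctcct
Either window held 1 GGGCGG, 59 bases before the start of Col4a5 and, on the opposite strand, 52 bases before that of Col4a6. The multiplexins, whose ends release fragments that act on vessels, were no DEGs: Col18a1 was at 0.23 ± 0.15 in Familiar vs Control and Col15a1 at 0.41 ± 0.87. Col7a1, which anchors epithelia to the tissue below, was at 0.32 ± 0.34 there, -0.27 ± 0.39 in the new-object group and 0.56 ± 0.33 between the trained groups.

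Transmembrane collagens lay mostly below 0. They did so for 4 of 5 identifiers in Familiar vs Control, with a median of -0.44, where 50.1% of all genes were above 0. In new-object vs Control all 5 did, with a median of -0.29, where 48.3% of all genes were above 0. Col23a1 accounts for 2 of the 5 identifiers, so these counts are not counts of separate genes. Among the 5 identifiers 1 was a DEG. Col23a1 (ENSRNOG00000046785) was lower in Familiar than in Control by -1.19 ± 0.43 (fold change 0.438, adjusted p = 0.142), and it was at -0.55 ± 0.40 in the new-object group and -0.53 ± 0.49 between the trained groups.

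The other Col23a1 identifier (ENSRNOG00000003349) had values of -0.44 ± 0.26, -0.29 ± 0.26 and -0.24 ± 0.26 in the same order and was no DEG. How the authors' counting divided reads between the 2 identifiers is not given in the sources used here, so the DEG call belongs to the first identifier and not to the gene as a whole. Col25a1, a neuronal collagen whose shed part is found in amyloid plaques, lay just outside the DEG rule in Familiar vs Control, at -0.33 ± 0.13 with an unadjusted p of 0.0102 in the authors' table, and was at -0.28 ± 0.13 in the new-object group. Col24a1 and Col8a2 lay just inside it, with unadjusted p values of 0.00825 and 0.00854 in the authors' table. Col17a1, of the junctions that fasten epithelia, was at -0.56 ± 0.46 in Familiar vs Control, and Col13a1, of the neuromuscular junction, at 0.40 ± 0.54 and at 0.98 ± 0.49 in Familiar vs new-object. The Col23a1 promoter is shown as that of the symbol with the 1 lower DEG of Familiar vs Control, at chr10:36050077-36050326 on the plus strand, with GGGCGG on the opposite strand 157 and 90 bases before the start.
Col23a1: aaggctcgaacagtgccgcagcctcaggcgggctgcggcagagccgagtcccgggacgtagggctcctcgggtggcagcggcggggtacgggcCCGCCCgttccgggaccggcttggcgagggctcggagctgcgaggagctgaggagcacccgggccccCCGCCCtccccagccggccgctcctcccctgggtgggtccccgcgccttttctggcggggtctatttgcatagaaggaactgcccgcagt

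Of the short-chain collagens 1 of 3, Col8a2, was a DEG of Familiar vs Control, where 3.72% of all genes were. Of the FACIT collagens 1 of 9, Col20a1, was a DEG of new-object vs Control, where 2.66% of all genes were. The 2 other chains were no DEGs. Col8a2 (ENSRNOG00000010841), a network chain of the cornea and of vessel walls, was higher in Familiar than in Control by 0.78 ± 0.30 (fold change 1.72, adjusted p = 0.185) and was at 0.42 ± 0.33 in the new-object group and 0.30 ± 0.27 between the trained groups. Its partner Col8a1 was at -0.25 ± 0.42 in Familiar vs Control, and Col10a1, of growing cartilage, at 0.40 ± 0.62. The Col8a2 promoter is shown for its run of GC boxes, at chr5:143870519-143870768 on the plus strand, where GGGCGG or its reverse complement occurred 5 times, from 111 to 33 bases before the start.
Col8a2: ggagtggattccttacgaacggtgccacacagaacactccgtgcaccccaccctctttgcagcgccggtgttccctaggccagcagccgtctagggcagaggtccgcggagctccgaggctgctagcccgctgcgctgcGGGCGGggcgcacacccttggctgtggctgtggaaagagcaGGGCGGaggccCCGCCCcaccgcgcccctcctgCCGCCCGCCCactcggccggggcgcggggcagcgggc

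FACIT collagens decorate the surface of fibrils and do not form fibrils themselves. Above 0 were 5 of 9 in Familiar vs Control, and none was a DEG. Col14a1, which coats type I fibrils, was highest at 0.59 ± 0.30, followed by its relative Col12a1 at 0.29 ± 0.15, and Col22a1 was lowest at -0.85 ± 0.63. Against Control in the new-object group 2 of 9 were above 0, Col12a1 at 0.39 ± 0.16 and Col14a1 at 0.33 ± 0.33. In Familiar vs new-object 7 of 8 were above 0 (52.3% of all genes), with a median of 0.42 and 0 DEGs, and Col16a1 was at 0.40 ± 0.16 (adjusted p = 0.334). Col20a1 (ENSRNOG00000010326) was lower in the new-object group by -1.16 ± 0.37 (fold change 0.447, adjusted p = 0.112). Without RUVSeq its log2 fold change was 0.19 ± 0.95, so its direction depended on the sources removed, and it was at -0.15 ± 0.39 in Familiar vs Control. The type IX chains of cartilage, Col9a1, Col9a2 and Col9a3, were at 0.17 ± 0.66, 0.13 ± 0.29 and -0.14 ± 0.31 in Familiar vs Control and at -0.38 ± 0.52, -0.14 ± 0.25 and -0.64 ± 0.32 in the new-object group. Col16a1 was at 0.24 ± 0.16 in Familiar and Col19a1, made by some interneurons, at -0.03. Of the unclassed chains Col26a1 was at 0.46 ± 0.59 and Col28a1 at 0.10 in Familiar vs Control. The set-apart Col4a3bp was at -0.12 ± 0.08 in Familiar vs Control.

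The calls of the collagen increases depended on RUVSeq. After upper quartile normalization alone, Col3a1 was at 0.67 ± 0.29, Col6a3 at 0.68 ± 0.28 and Col1a1 at 0.44 ± 0.27 in Familiar vs Control, and 0 of the 8 higher collagens were DEGs. Col23a1 was the 1 collagen DEG there, at -1.59 ± 0.55 (adjusted p = 0.687, the smallest of the 45). The direction was the same at k = 4 as without RUVSeq for 44 of 45 collagens in Familiar vs Control, 36 of 44 in new-object vs Control and 37 of 42 in Familiar vs new-object. The median ratio of the implied error at k = 4 to that without RUVSeq was 66.9% over the collagens and 67.8% over all genes in Familiar vs Control. In the same step the share of all genes with an unadjusted p under 0.01 in the authors' table went from 0.993% to 5.11%. The number of higher collagen DEGs went from 0 to 1, 1, 5 and 8 at k = 1, 2, 3 and 4, and that of all genes from 95 to 123, 217, 277 and 321. The authors had settled on k = 4 because it separated the compared groups best. The paper adds that the trained groups were not fully separated by it, so some differing genes may be missed.

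**Figure D3:**
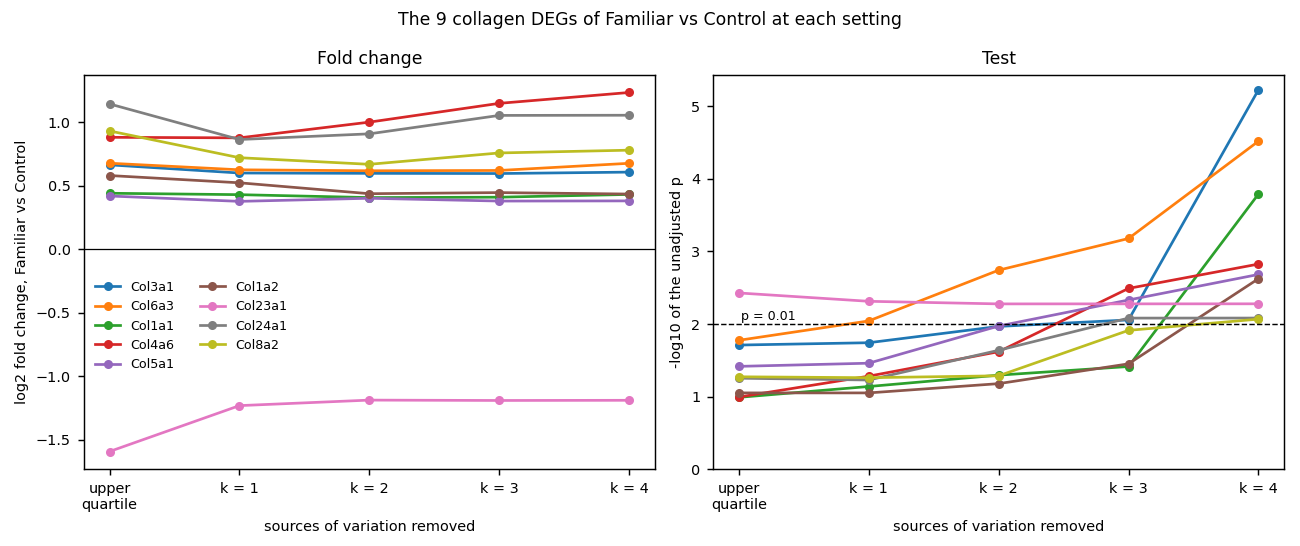
The 9 collagen DEGs of Familiar vs Control after upper quartile normalization alone and with 1 to 4 sources of variation removed (horizontal axis): log2 fold change at left, −log10 of the unadjusted p at right, with the DEG threshold of 0.01 as a dashed line. Fold changes keep their sign throughout, while 1 line starts above the threshold and all 9 end above it.

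Genes that make, modify and bind collagen were examined in 7 lists of 65 identifiers in all. They held 5 DEGs in Familiar vs Control, all higher (7.69%, beside 3.72% of all genes), and 49 of 65 (75.4%) lay above 0, beside 50.1% of all genes. Without RUVSeq 1 of the 65, Serpinh1, was a DEG. Serpinh1, the chaperone Hsp47 that binds the triple helix in the endoplasmic reticulum and is also induced by heat shock, was higher in Familiar by 0.60 ± 0.10 (adjusted p = 1.56e-06) and in the new-object group by 0.40 ± 0.12 (adjusted p = 0.0793). P4ha2, a prolyl hydroxylase subunit that stabilises the helix, was higher in Familiar by 0.49 ± 0.14 (adjusted p = 0.0251) and was at 0.21 ± 0.16 in the new-object group. The other 14 of 15 identifiers for prolyl and lysyl modification were no DEGs.

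Proteins that lie on or between collagen fibrils held the other 3 of these DEGs. Tnxb, tenascin X, was higher in Familiar by 0.47 ± 0.10 (adjusted p = 0.000253), fibronectin (Fn1) by 0.40 ± 0.09 (adjusted p = 0.00152) and Hspg2, the basement membrane proteoglycan perlecan, by 0.53 ± 0.19 (adjusted p = 0.144). Tnxb and Hspg2 were also higher in Familiar than in the new-object group, by 0.48 ± 0.15 (adjusted p = 0.137) and 0.50 ± 0.18 (adjusted p = 0.245), and so was the collagen chaperone Fkbp10, by 0.56 ± 0.19 (adjusted p = 0.165). These were 3 DEGs of 62 (4.84%, beside 2.5% of all genes), with 35 of 62 above 0 (56.5%, beside 52.3% of all genes), and without RUVSeq 1 other gene of the lists, Aspn, was a DEG. None of 7 genes for procollagen processing, 5 for cross-linking by lysyl oxidases, 10 for receptors and 5 for degradation was a DEG in Familiar vs Control by edgeR, while 1, 1, 2 and 0 had an unadjusted p under 0.05, as did 2090 of all 17521 genes. The receptor Adgrg1 was at 0.03 ± 0.07. The same lists held 2 DEGs of 63 in new-object vs Control, Serpinh1 and Adamts2, a procollagen peptidase, at 0.33 ± 0.13 (adjusted p = 0.242). They made up 3.17% of the lists, beside 2.66% of all genes, and without RUVSeq there were 0.

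Markers of meningeal fibroblasts, the cells of the brain's coverings that make much of its fibrillar collagen, gave 4 DEGs of 21 identifiers in Familiar vs Control, all higher, where 3.72% of all genes were DEGs, and 0 without RUVSeq. The list holds no collagen and shares 3 genes with the list of collagen-binding proteins and 1 with that of oligodendrocytes. Above 0 lay 17 of the 21, with a median of 0.32, and the DEGs were the growth factor Igf2 at 0.53 ± 0.10 (adjusted p = 4.11e-05), the transporter Slc22a6 at 0.87 ± 0.25 (adjusted p = 0.0280), Islr at 0.64 ± 0.20 (adjusted p = 0.0566) and the transcription factor Foxc1 at 0.48 ± 0.16 (adjusted p = 0.101). For the new-object group against Control the median was 0.10 (0.23 without RUVSeq, where that of Familiar was 0.35), 15 of 21 lay above 0 and Igf2 was the 1 DEG (2.66% of all genes), at 0.48 ± 0.17, as it was without RUVSeq. In Familiar vs new-object the median was 0.14, 17 of 21 lay above 0 (12 without RUVSeq, and 52.3% of all genes), and Foxc1 at 0.70 ± 0.17 (adjusted p = 0.0214) and Slc13a4 at 0.44 ± 0.15 were DEGs (2.5% of all genes), with 0 DEGs without RUVSeq. The part of meningeal tissue in the collagen differences was not tested, and since the tables give no levels, the summed level of a marker list in a group cannot be given.

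Of the vessel markers, 0 of 12 endothelial and 0 of 12 mural cell markers were DEGs in Familiar vs Control, with medians of -0.04 and 0.03. Of them 4 and 2 had an unadjusted edgeR p under 0.05, beside 2090 of all 17521 genes. In new-object vs Control 9 of 12 mural markers lay below 0, with a median of -0.18, the same without RUVSeq. Notch3 at -0.33 ± 0.09 and Abcc9 at -0.47 ± 0.18 were the DEGs there, 2 of 12 beside 2.66% of all genes. In Familiar vs new-object all 12 mural markers lay above 0, with Vtn a DEG at 0.46 ± 0.16, while the endothelial transporter Slco1a4 was lower at -0.37 ± 0.12. In that comparison 52.3% of all genes lay above 0 and 2.5% were DEGs. Without RUVSeq 10 of the 12 mural markers lay above 0 there, and neither vessel list held a DEG in any comparison. Oligodendrocyte markers lay mostly below 0 against Control, 8 of 10 in Familiar and 9 of 10 in the new-object group, with medians of -0.23 and -0.30. The DEGs in Familiar vs Control were 3 of the 10 (3.72% of all genes), among them the myelin genes Cnp at -0.37 ± 0.08 and Mbp at -0.50 ± 0.09, and 2 without RUVSeq. In new-object vs Control there were 5 (2.66% of all genes), among them Cnp at -0.32 ± 0.09, Mag at -0.34 ± 0.12, Mbp at -0.56 ± 0.12 and Mobp at -0.56 ± 0.14, and 0 without RUVSeq. Medians of the neuron, astrocyte and microglia lists lay between -0.10 and 0.13 in both comparisons with Control, with 0 DEGs. All 9 astrocyte markers lay above 0 in new-object vs Control, 3 with an unadjusted edgeR p under 0.01 (659 of all 17257 genes, and 0 of the 9 without RUVSeq), and Gja1, a gap junction protein, had an adjusted p under 0.05 at 0.22 ± 0.06. In Familiar vs Control Gja1 at 0.23 ± 0.06 and the synaptic vesicle gene Syt1 at -0.14 ± 0.04 had an adjusted p under 0.05, all short of the fold change that a DEG needs. The choroid plexus and skeletal muscle lists held 0 DEGs in both of these and 1 each in Familiar vs new-object, Tmem72 at 1.84 ± 0.53 and Myod1 at 1.34 ± 0.40 (2.5% of all genes), with 0 DEGs in either list without RUVSeq. The part of these differences in the collagen results was not tested.

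**Figure D4:**
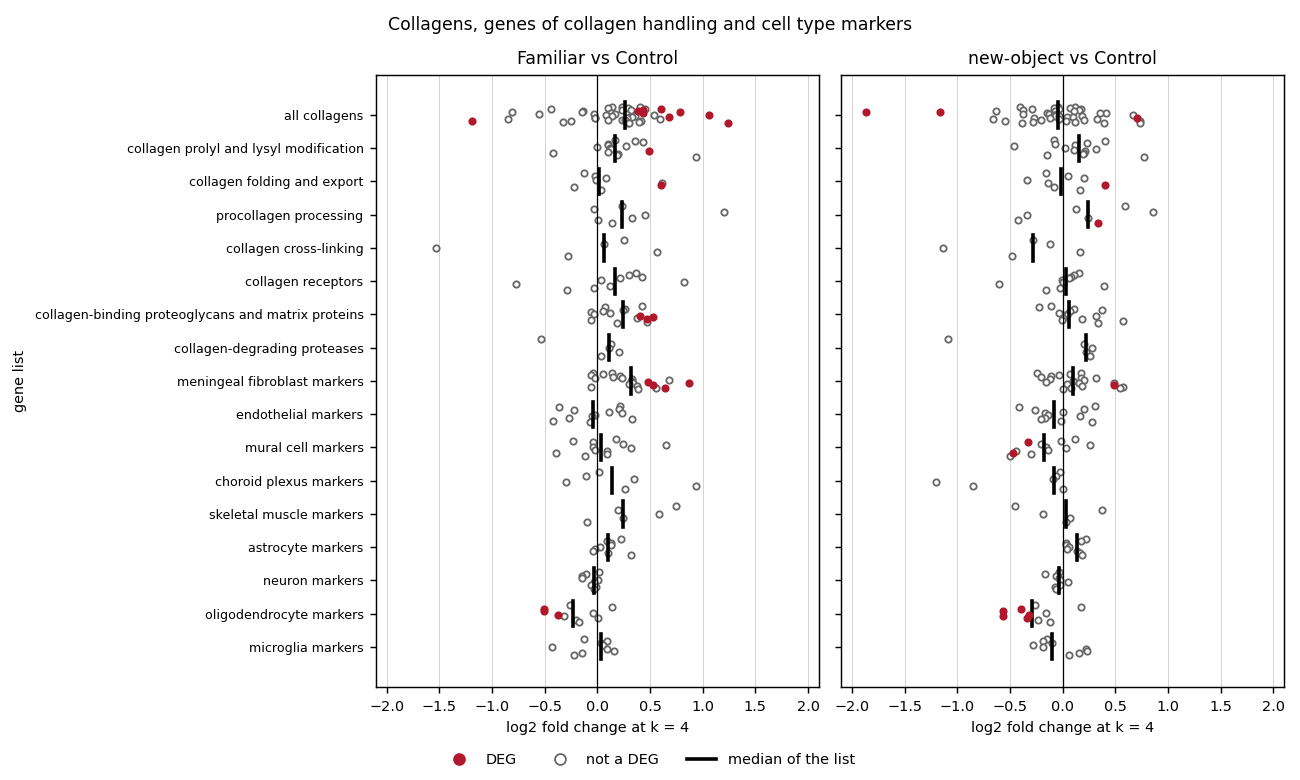
Log2 fold change at k = 4 (horizontal axis) of each collagen and of each gene in the lists for collagen handling and for cell types (vertical axis), for Familiar vs Control at left and new-object vs Control at right; filled red circles are DEGs and black bars are medians. At left the bars of all collagens and of meningeal fibroblast markers stand at 0.26 and 0.32, and at right at -0.04 and 0.10.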

How the data were processed

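RNA of 14 perirhinal cortex samples was sequenced. Per the labels and methods, the authors aligned reads to Rnor_6.0 with TopHat and Bowtie2, counted reads with 1 mapping position per gene by HTSeq, removed genes with a mean count under 1 in any group, adjusted counts with RUVSeq and compared groups in pairs with edgeR. Tool versions are not given in the sources used here. The 3 deposited tables hold the authors' linear fold change (a ratio of group means) and unadjusted p-value per gene after upper quartile normalization alone and with k = 1 to 4 sources removed, and k = 5 for Familiar vs new-object. They hold 0 columns of values per sample, so depth per rat is unknown and no model, replicate check or interval from counts could be made.

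The authors' comparisons are themselves the data described here. Log2 values of the fold changes were taken, Benjamini-Hochberg adjustment was run on the whole of each table, and a standard error was implied from the fold change and the normal quantile of its p. These p-values measure the spread between rats after adjustment by the authors. Members, classes and gene lists were chosen with earlier results of these data known. Every member is named, with full values for DEGs; list genes are named where they are DEGs or define a cell type, except for a marker that is not reported here. Alternatives were other k, other DEG rules, inclusion of Col4a3bp, and members whose implied error without RUVSeq was under the median of all genes. The calculations were tested on simulated data. Promoters and motif letters came from RefSeq (GRCr8). Scripts ran in Python 3.11.15 with pandas 2.3.3, numpy 2.4.6 and scipy 1.17.1, and figures were drawn with matplotlib 3.10.9.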

Additional observations from a re-analysis of the deposited data

Results flagged for a closer look

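The trained groups differed in 2 of 42 collagens (4.76%) by the deposited test of Familiar vs new-object, beside 2.5% of all genes. Col5a2 was higher in Familiar, with a log2 fold change of 0.61 at k = 4 (adjusted p = 0.0628), and Col6a3 with 0.55 (adjusted p = 0.0628). Neither passed an adjusted p of 0.05 at k = 4. With 5 sources removed Col3a1 was also a DEG and 3 collagens passed it, where 477 of all 17461 genes were DEGs and 198 passed it.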

How the results depend on the processing

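No paired analysis was possible because the tables hold no values per sample and the labels name no cage mates, and for the same reason leaving out single rats was not run; k = 5 was not run for comparisons with Control, whose tables lack it. The main counts of collagen DEGs at k = 4 were 9 for Familiar vs Control, 3 for new-object vs Control and 2 for Familiar vs new-object. Upper quartile normalization alone gave 1, 1 and 0, k = 1 gave 2, 0 and 0, k = 2 gave 2, 0 and 1, members with a small implied error 2, 0 and 1, and the adjusted p alone at 0.05, with no fold change rule, 3, 0 and 0. Collagens with an adjusted p under 0.05 in Familiar vs Control numbered 3 at k = 4, 0 without RUVSeq and at k = 1, 2 and 3, and 1 among members with a small implied error; in Familiar vs new-object there were 0 at k = 4 and 3 at k = 5. The collagen median of new-object vs Control changed sign without RUVSeq, from -0.04 to 0.0597, and Col20a1 there from -1.16 to 0.19; the cause was not tested. The medians of the other comparisons kept their direction in every alternative, but that of Familiar vs new-object fell from 0.21 to 0.144 without RUVSeq and to 0.134 among members with a small implied error. Of the 14 DEG calls in single collagens, 2 held without RUVSeq, 2 at k = 1, 3 at k = 2 and 10 at k = 3. Depth per rat is unknown, so how far it limits each call cannot be said.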

Other observations

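Of the 7 pairs of members that are adjacent in RefSeq order, Col3a1 and Col5a2 on chromosome 9 had log2 fold changes of 0.61 and 0.23 in Familiar vs Control, 0.18 and -0.37 in new-object vs Control, and 0.37 and 0.61 in Familiar vs new-object. Col4a1 and Col4a2 lie head to head on chromosome 16 with 76 bases between their starts, and had 0.14 and -0.02 in Familiar vs Control and -0.04 each in new-object vs Control. Col4a3 and Col4a4, head to head on chromosome 9 with 412 bases between their starts, had 0.54 and 0.09 in Familiar vs Control and both -0.08 in new-object vs Control. Differences within a pair were not tested.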
